A study of Danio rerio with 30 samples.

Results

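Claudin genes were followed through whole zebrafish embryos profiled cell by cell, with the level of each gene read per cell class, per stage and per genotype. The members were all features whose symbol begins with cldn, without symbols beginning cldnd, that held at least 20 UMIs over the 22 libraries. A UMI is a molecular tag, so each UMI stands for 1 captured transcript. Of the 34 symbols beginning with cldn, 30 were kept among 27597 features, 3 cldnd symbols were left out, and cldn10l2 stayed under the minimum. The rule uses symbols and total counts only, though it was set with earlier results of these data known.

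Claudins are small membrane proteins with a pair of extracellular loops that join neighbouring epithelial cells in tight junctions. Some of them seal the space between cells and others form pores for ions, so that the mixture of claudins in a cell sheet sets how leaky it is and to what. Fishes hold more claudins than mammals do, including a letter-named group (cldna to cldnk) that is expanded in fishes. In the gastrula the enveloping layer, which becomes the periderm, is the tight outer sheet of the embryo. The basal epidermis, ionocytes, neural tube and ear form junctional barriers of their own as they mature.

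The 16 libraries at 12 hours post fertilization (hpf) and 6 at 8 hpf each came from about 30 pooled embryos of the TL/AB strain. The lost factors xbp1, atf6, creb3l1 and creb3l2 are bZIP transcription factors of the endoplasmic reticulum and secretory pathway. At 12 hpf the groups were the quadruple loss (2 libraries, an xbp1, atf6 and creb3l2 crispant made in creb3l1 mutants), xbp1+creb3l2+creb3l1, atf6+creb3l2+creb3l1 and creb3l2+creb3l1 (1 library each, crispants made in creb3l1 mutants), and xbp1+atf6, xbp1, atf6, creb3l2 and creb3l1 crispants (1 library each). The creb3l1 mutant, an uninjected stable line, had 2 libraries, as did tyr crispants, injected against a pigment gene, and uninjected wild type embryos. A crispant is an embryo injected with Cas9 and guide RNA at the 1-cell stage, so its cells can carry different alleles. At 8 hpf, xbp1 crispants received 40 pg of atf6-N, creb3l1-N, creb3l2-N or mCherry mRNA, and embryos with no targeted gene received 40 pg of creb3l2-full or 125 pg of mCherry mRNA, with 1 library each. All groups shared the strain. Which embryos a replicate library came from beyond its pool is not stated, so p-values measure the spread between libraries. Most groups had 1 library, so in fits that join groups this spread also holds differences between those groups. A further 8 libraries of the series were not analysed here.

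Library totals ran from 37677042 to 120722910 UMIs at 12 hpf and from 40560649 to 100654147 at 8 hpf. After filtering, 62385 cells at 12 hpf and 19021 at 8 hpf were clustered without the claudins and other junction genes, and 67.4% and 37.2% of them fell into classes named from markers. Classes are marker patterns of whole-embryo samples and carry the ending -like. Of 48 clusters at 8 hpf, 11 came to 95% or more from a single library. Any 2 libraries shared at most 16 cell barcodes. In 12 hpf libraries labelled as lost, xbp1 stood at 117 to 288 CPM (the usual depth-scaled count scale, on which a gene's UMIs are divided by all UMIs of the cells considered), against 320 to 481 CPM in intact ones, atf6 at 6.40 to 12.9 against 36.7 to 65.2 CPM, and creb3l2 at 3.95 to 6.92 against 14.0 to 22.2 CPM. The mRNA of creb3l1 overlapped, at 3.54 to 13.7 CPM in lost libraries and 7.13 to 8.72 CPM in intact ones, and so does not check that label. At 8 hpf, xbp1 stood at 131, 212, 226 and 258 CPM in the 4 libraries labelled as xbp1 crispants, against 425 and 715 CPM in the others. Because the reads come from the 3′ end of transcripts, CPM values of different genes are compared here without a length correction, though capture can still differ between genes.

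Among the named classes at 12 hpf, the surface epithelia and placodes held most claudin transcript per UMI. The 30 members summed to 2209 ± 657 CPM in ionocyte precursor-like cells (SD over 16 libraries), 1673 ± 420 CPM in basal epidermis-like cells, 1452 ± 503 CPM in periderm-like cells and 1334 ± 309 CPM in otic placode-like cells. These 4 ranges overlapped one another. At the low end stood somite-like cells with 114 ± 20.2 CPM and presomitic mesoderm-like cells with 88.8 ± 11.9 CPM, whose highest libraries lay under the lowest library of each of those 4 epithelial classes. Only 14 of the 30 members averaged at least 20 CPM in any named class, and the other 16 stayed under that level in all 24. The class levels are descriptions over libraries of every genotype, with no test. They cover all 16 libraries, except for blood and endothelium-like (15), yolk syncytial layer-like (11) and primordial germ cell-like cells (7), which in the other libraries had fewer than 10 cells. Unnamed clusters are outside this order, and some of them held more cldni than any named class.

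**Figure D1:**
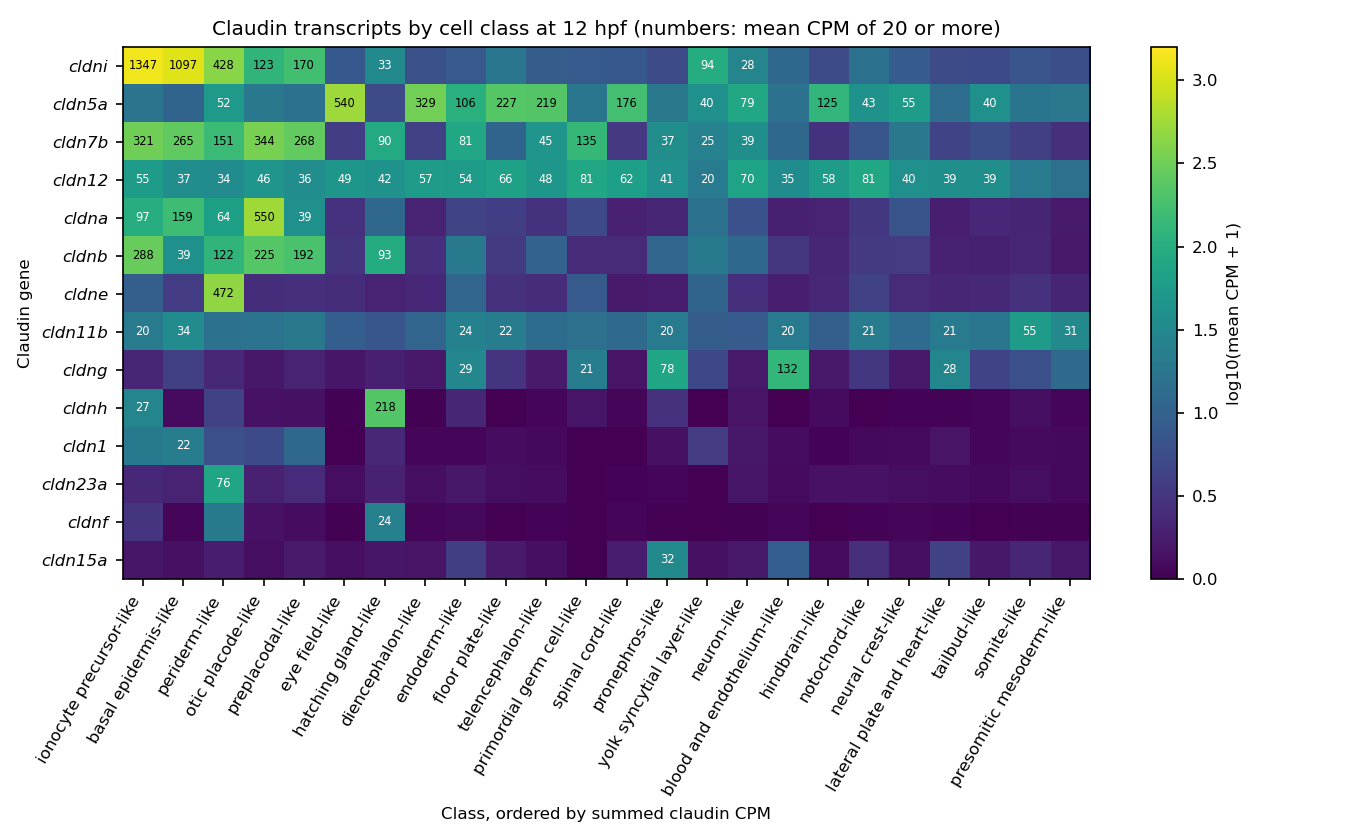
Mean CPM at 12 hpf of the 14 claudins that reach 20 CPM in at least 1 named class (rows) in the 24 named classes (columns, ordered by summed claudin CPM), coloured by log10(mean CPM + 1), with the mean printed where it is 20 or more. The left columns share cldni, cldn7b, cldna and cldnb, cldn5a fills the neural columns, and cldne, cldn23a and cldnh are each high in a single column.

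The epidermal and placodal classes shared a set of 4 claudins in different proportions. cldni, a letter-named claudin, averaged 1347 ± 569 CPM in ionocyte precursor-like cells, 1097 ± 400 CPM in basal epidermis-like cells and 428 ± 245 CPM in periderm-like cells. cldn7b, whose mammalian relative binds the adhesion protein EpCAM, was more even, at 344 ± 44.5 CPM in otic placode-like, 321 ± 51.6 CPM in ionocyte precursor-like, 268 ± 37.2 CPM in preplacodal-like and 265 ± 43.7 CPM in basal epidermis-like cells. Its spread between libraries overlapped among these 4 classes. cldnb, known from the lateral line primordium and its reporter lines, averaged 288 ± 116 CPM in ionocyte precursor-like, 225 ± 52.2 CPM in otic placode-like and 192 ± 68.4 CPM in preplacodal-like cells. Basal epidermis-like cells, next to them in cldni, held only 39.1 ± 19.0 CPM of cldnb. cldna was highest in otic placode-like cells, with 550 ± 268 CPM and a range of 237 to 1238 CPM, followed by basal epidermis-like cells with 159 ± 74.2 CPM and a range that overlapped. cldn1, whose mammalian relative is a main part of the skin barrier, was a minor member here, with 21.6 ± 7.06 CPM in basal epidermis-like and 18.6 ± 12.1 CPM in ionocyte precursor-like cells.

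The periderm-like and hatching gland-like classes each held claudins that hardly appeared elsewhere. cldne, known from the enveloping layer, had 128, 443 and 1178 CPM in the lowest, median and highest periderm-like library. The next class was endoderm-like cells, with a mean of 10.1 CPM and a highest library of 76.6 CPM, so the ranges were apart. Of the cldne UMIs in named classes, 81.6% lay in periderm-like cells. cldn23a averaged 76.2 ± 46.9 CPM in periderm-like cells, and the next class, preplacodal-like cells, averaged 1.39 CPM with no overlap. cldnh had 146, 217 and 331 CPM in the lowest, median and highest hatching gland-like library. Ionocyte precursor-like cells came next with a mean of 27.3 CPM and a highest library of 123 CPM, and 91.2% of cldnh UMIs in named classes were hatching gland-like. cldnf was shared by both classes, at 24.0 ± 12.6 CPM in hatching gland-like and 18.5 ± 12.5 CPM in periderm-like cells. cldn15la, a gut claudin in later zebrafish, was sparse, yet 76.5% of its 51 UMIs in named classes lay in hatching gland-like cells.

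Neural classes were marked by cldn5a, which seals the early neuroepithelium of the zebrafish brain and whose mammalian relative seals brain vessels. It had 303, 519 and 840 CPM in the lowest, median and highest eye field-like library. It averaged 329 ± 112 CPM in diencephalon-like, 227 ± 84.7 CPM in floor plate-like, 219 ± 92.9 CPM in telencephalon-like, 176 ± 49.2 CPM in spinal cord-like and 125 ± 41.0 CPM in hindbrain-like cells, each overlapping its neighbour in this order. Neuron-like and neural crest-like cells held less, at 79.0 ± 25.0 and 55.3 ± 14.2 CPM, and so did presomitic mesoderm-like cells at 17.6 ± 5.18 CPM. Endoderm-like cells averaged 106 CPM, with a spread from 10.0 to 430 CPM between libraries.

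Mesodermal classes held few claudins. cldng averaged 132 ± 34.7 CPM in blood and endothelium-like cells and 78.2 ± 18.3 CPM in pronephros-like cells, where cldn15a, whose relatives line gut and kidney tubules, also reached its highest mean of 32.2 ± 21.3 CPM. cldn11b, whose mammalian relative is known from myelin, was the leading member of somite-like cells with 55.4 ± 18.2 CPM and of presomitic mesoderm-like cells with 30.8 ± 9.07 CPM. cldn12, an atypical claudin that lacks the usual scaffold-binding end in mammals, was spread most evenly. It averaged at least 20 CPM in 22 of the 24 classes, with means between 14.4 CPM in presomitic mesoderm-like and 81.3 CPM in primordial germ cell-like cells. The germ cell-like mean rests on 82 UMIs in 7 libraries, and notochord-like cells were close to it at 80.6 ± 19.1 CPM. The other members were low everywhere: the highest class means were 14.7 CPM for cldn5b, 7.82 CPM for cldnc and 5.85 CPM for cldn2, and at most 3.08 CPM for the remaining 13.

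Among the named classes at 8 hpf nearly all high claudin levels lay in periderm-like cells, which summed to 4972 ± 1473 CPM over 6 libraries. cldne alone had 1823, 3444 and 4562 CPM in the lowest, median and highest of them. cldnb averaged 538 ± 202 CPM, cldn23a 503 ± 193 CPM, cldn7b 301 ± 133 CPM, cldnf 68.0 ± 26.4 CPM, cldnc 29.3 ± 10.1 CPM and cldn23b 28.6 ± 6.51 CPM. Of the UMIs in named classes, periderm-like cells held 97.7% for cldnb, 97.1% for cldne and 97.4% for cldn23a. Primordial germ cell-like cells, which reached 10 cells in 4 libraries, followed with 362 ± 93.1 CPM, mainly cldn7b at 142 ± 35.2 CPM, cldn12 at 98.3 ± 46.8 CPM and cldng at 87.6 ± 66.8 CPM. The other 8 classes summed to between 72.0 CPM in prechordal plate-like and 162 CPM in yolk syncytial layer-like cells. The yolk syncytial layer-like sum rests on 22 UMIs in 4 libraries, the neural plate-like sum on 5 libraries and the others on 6. Neural plate-like cells numbered only 3 in the atf6-N library, which was left out for that class. In 7 of these 8 cldn12 was the highest member, at 50.2 ± 7.5 CPM in basal epidermis-like cells, and in yolk syncytial layer-like cells it was cldne at 45.1 ± 38.9 CPM, which rests on 6 UMIs.

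Between the stages the claudins changed in both directions. Over all cells they summed to 586 ± 109 CPM at 12 hpf (n = 16) and 195 ± 49.2 CPM at 8 hpf (n = 6), and no 12 hpf library lay under the highest 8 hpf one. Of 20 members tested, 17 passed (edgeR quasi-likelihood test, adjusted p under 0.05 after Benjamini-Hochberg over all genes), of which 10 were higher and 7 lower at 12 hpf. This share is to be read against the background, in which 71.3% of all genes passed, 35.1% higher and 36.2% lower. The median log2 fold change was 0.61 for the members and -0.04 for all genes tested. Stage ran together with the library set and the injected agent, so that these cannot be told apart, while the Cell Ranger release was the same for the 8 hpf libraries and 8 of those at 12 hpf. In sums over all cells, fewer cells of a type and less RNA per cell cannot be told apart either.

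Of the 10 claudins that rose, cldni had the largest fold change. It had 98.1, 222 and 424 CPM in the lowest, median and highest 12 hpf library, against 0.307, 0.641 and 0.915 CPM at 8 hpf, a log2 fold change of 8.55 (SE 0.46, adjusted p = 1.2e-13 by edgeR). Its 8 hpf counts summed to 235 UMIs over 6 libraries, and at 12 hpf it was the claudin with the highest mean over all cells. cldna averaged 45.9 ± 17.9 CPM at 12 hpf and 1.16 ± 0.630 CPM at 8 hpf (log2 5.36), and cldnh 7.32 ± 3.06 and 0.262 ± 0.227 CPM (log2 4.83). cldn5a stood at 98.3 ± 24.0 CPM at 12 hpf and 17.2 ± 6.15 CPM at 8 hpf (log2 2.56), and cldn7b at 76.0 ± 12.6 and 17.8 ± 10.4 CPM (log2 2.13). For none of these 5 did the stages overlap. cldn1 (log2 7.0, resting on 15 UMIs in all at 8 hpf), cldn2 (2.33), cldn15a (1.77), cldnb (1.59) and cldn11b (1.19) also passed as higher.

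Of the 7 claudins that fell, cldne, cldn23a, cldnc and cldn23b had their highest 8 hpf class mean in periderm-like cells. cldne averaged 7.03 ± 5.6 CPM at 12 hpf and 64.1 ± 16 CPM at 8 hpf, a log2 fold change of -3.20 (SE 0.34), with no overlap. cldn23a averaged 1.5 ± 0.901 CPM at 12 hpf and 8.95 ± 3.39 CPM at 8 hpf (log2 -2.57), also without overlap. cldnc (log2 -1.64), cldn17 (-1.39), cldn23b (-1.33) and cldn10b (-0.88) were lower as well. cldn5b passed with a log2 fold change of -1.86, but its 8 hpf mean rested on the atf6-N library at 32.2 CPM, while the other 5 stood at 0.559 to 1.77 CPM. With control libraries only, its log2 fold change was 0.13 (adjusted p = 0.77 by edgeR), and the calls of cldn17 (-1.03, adjusted p = 0.074) and cldnc (-1.83, adjusted p = 0.058) ended. Control libraries were the tyr, wild type and mCherry libraries, 6 in all. Those at 8 hpf are thus not all unperturbed, since mCherry (40 pg) was given to xbp1 crispants and mCherry (125 pg) to embryos with no targeted gene. cldnf, cldng and cldn12 did not pass, and cldn12 averaged 45.2 ± 8.17 CPM at 12 hpf and 45 ± 10.5 CPM at 8 hpf.

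**Figure D2:**
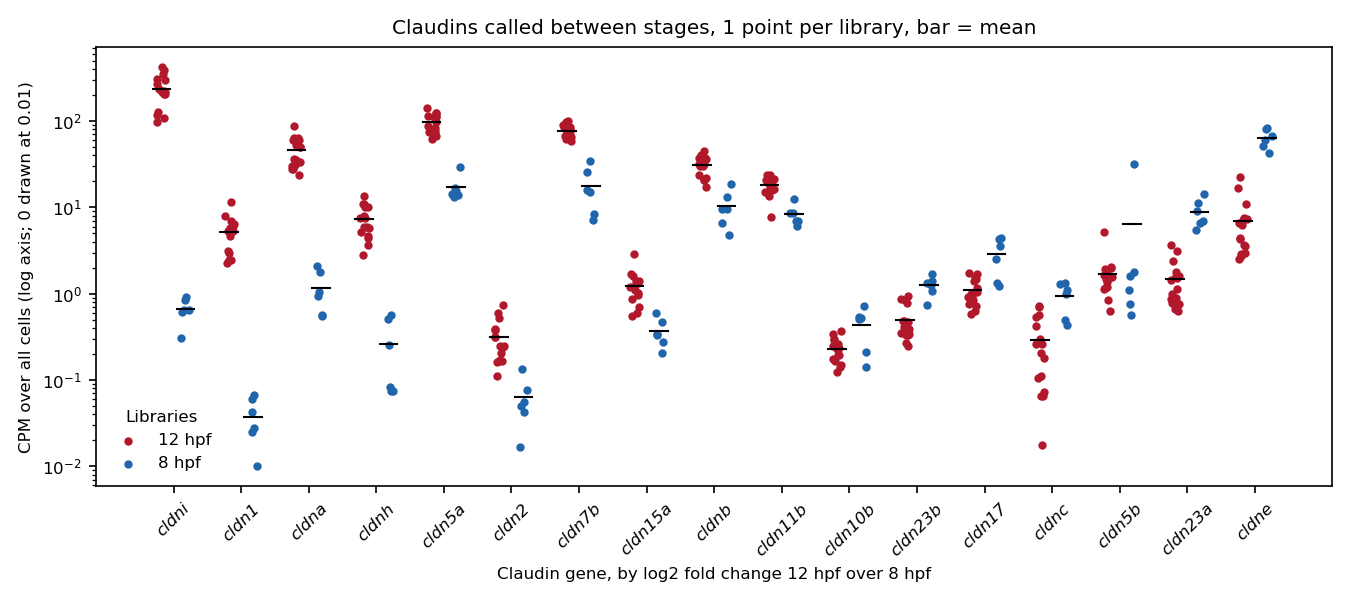
CPM over all cells on a log axis of the 17 claudins that passed the test between stages, with the 16 libraries at 12 hpf left and the 6 at 8 hpf right for each gene (1 point per library, bar at the mean). The order from cldni to cldne follows the log2 fold change of 12 hpf over 8 hpf, and cldni at the left and cldne at the right do not overlap between stages, while for cldn5b 1 library at 8 hpf lies far above the others.

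Within the classes named at both stages the members took class-specific courses, tested in fits that were added after the data had been seen. In basal epidermis-like cells 8 of 10 tested members passed (background 73.9%), 6 of them higher. cldni averaged 1097 ± 400 CPM at 12 hpf and 0.552 ± 0.229 CPM at 8 hpf, where all 6 libraries together held 27 UMIs. cldna averaged 159 ± 74.2 CPM at 12 hpf and 0.319 ± 0.291 CPM at 8 hpf, and cldn1 21.6 ± 7.06 and 0.0251 ± 0.0616 CPM. The fitted log2 fold changes of 10.96, 8.81 and 9.03 for these 3 genes rest on 27, 17 and 1 UMIs at 8 hpf, so their size is uncertain though the ranges were far apart. cldnb was higher by 5.66 (SE 0.45), at 39.1 ± 19.0 CPM against 0.892 ± 0.556 CPM, and cldn7b by 5.22 (SE 0.18), at 265 ± 43.7 CPM against 7.52 ± 1.89 CPM. cldn11b was higher too (log2 1.68), and cldne (-0.93) and cldn12 (-0.38) were lower, the cldn12 call ending with control libraries only (-0.28, adjusted p = 0.35 by edgeR).

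In periderm-like cells 11 of 12 tested members passed (background 59.4%), 4 higher and 7 lower. cldne stood at 472 ± 302 CPM at 12 hpf and 3416 ± 979 CPM at 8 hpf, a log2 fold change of -2.86 (SE 0.31), and its highest 12 hpf library lay under its lowest 8 hpf one. cldn23a fell to 76.2 ± 46.9 CPM at 12 hpf, against 503 ± 193 CPM at 8 hpf (log2 -2.69), and cldnb to 122 ± 69.9 CPM, against 538 ± 202 CPM (log2 -2.08). cldnc (-4.02), cldn23b (-3.31), cldnf (-1.76) and cldn7b (-0.97) were lower as well. cldni rose to 428 ± 245 CPM, against 0.824 ± 0.708 CPM at 8 hpf (log2 8.73, with 5 UMIs in all at 8 hpf), and cldn5a (3.13), cldna (2.61) and cldn11b (1.07) were also higher. With control libraries only, cldn7b stood at -0.21 (adjusted p = 0.54 by edgeR).

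The 12 hpf periderm-like class was made of 2 clusters with different claudins. Cluster 42 held shallow cells (median 1952.5 UMIs, no marked doublets), with 1487 CPM of cldne, 348 CPM of cldnb, 247 CPM of cldn23a and 98.7 CPM of cldni over its pooled cells. Cluster 45 held deeper cells (median 10851.5 UMIs, 13.1% marked doublets before their removal), with 70.5 CPM of cldne, 53.9 CPM of cldnb, 8.92 CPM of cldn23a and 616 CPM of cldni. All 14 listed periderm markers were enriched in both clusters, with 6 of them among the 10 leading genes of each. Set against 8 hpf, in fits with 14 of the 12 hpf libraries, cluster 42 alone passed for 3 of 6 tested members (background 59.7%): cldni at 6.51, cldne at -0.99 (SE 0.25, adjusted p = 0.0016) and cldn23a at -0.79 (adjusted p = 0.012), all by edgeR. There cldnb had a log2 fold change of -0.47 (adjusted p = 0.12), cldn7b of -0.11 (0.72) and cldnf of 0.11 (0.76). Cluster 45 alone passed for 11 of 12 (background 62.6%), with cldne at -5.57 and cldnb at -3.46. The size of the periderm-like decrease therefore depended on the cluster, and for cldnb, cldn7b and cldnf so did the call.

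**Figure D3:**
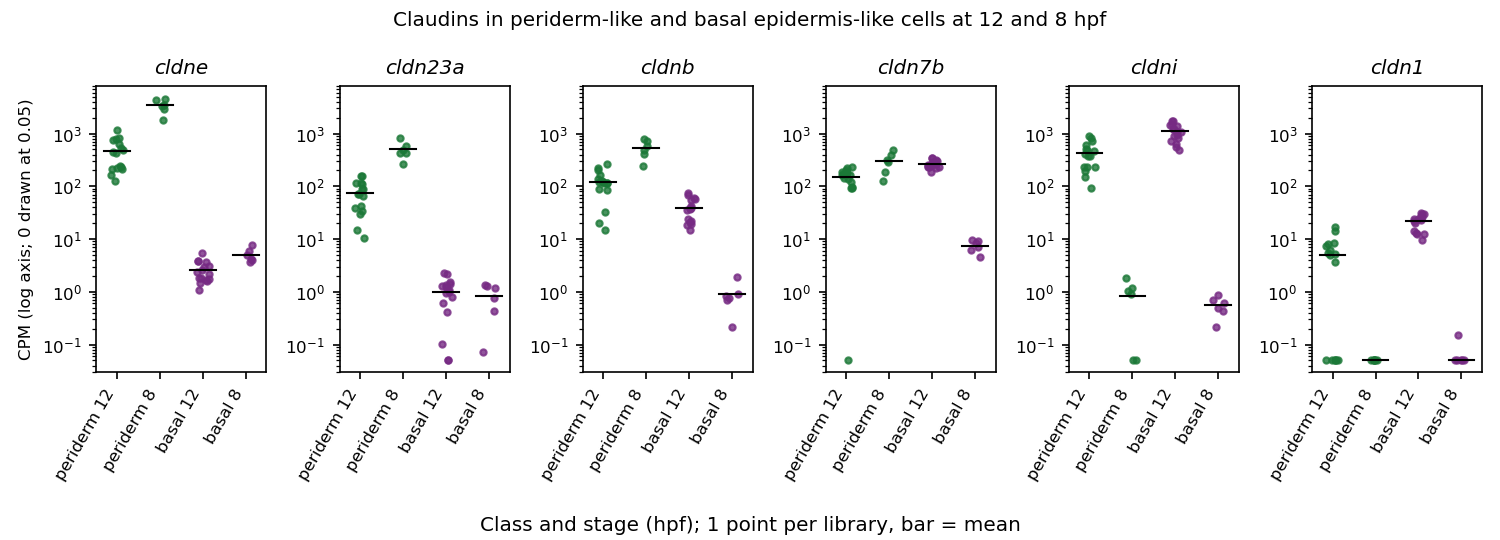
CPM on a log axis of 6 claudins in periderm-like (green) and basal epidermis-like cells (purple) at 12 and 8 hpf, with 1 point per library (16 at 12 hpf, 6 at 8 hpf), a bar at the mean and 0 drawn at 0.05. cldnb and cldn7b are lower at 12 hpf in periderm-like cells and higher at 12 hpf in basal epidermis-like cells, whereas cldni is higher at 12 hpf in both.

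The stage difference itself differed between the 2 epidermal classes for 11 of 16 tested members (edgeR, interaction of stage and class with the library as a block, background 39.2%). For cldnb the log2 fold change in periderm-like cells minus that in basal epidermis-like cells was -7.90 (SE 0.44, adjusted p = 3.7e-16), and for cldn7b it was -6.20 (SE 0.28, adjusted p = 1.8e-18). In the fits of the whole classes these genes moved in opposite directions in the 2 classes. The cldnb value rests on 35 UMIs of basal epidermis-like cells at 8 hpf, so its size is uncertain. The periderm-like decrease of cldn7b did not pass with control libraries only, nor did that of either gene in cluster 42 alone. For cldni the difference was -2.15 (SE 1.35, adjusted p = 0.22), so its rise was not shown to differ between the 2 classes. With control libraries only, 7 members passed. The fit joins both periderm-like clusters.

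Outside the epidermis fewer members passed the low-count filter. In endoderm-like cells all 5 tested members were higher at 12 hpf (background 63.9%): cldn5a by 4.46, cldn7b by 3.46, cldng by 3.11, cldn12 by 1.15 and cldn11b by 0.87 on the log2 scale. The filter can admit a member through its 12 hpf counts, as for cldng with 10 UMIs at 8 hpf. A shared direction among tested members thus does not extend to untested ones. Endoderm-like cldne, not tested, averaged 10.1 CPM at 12 hpf and 16.8 CPM at 8 hpf. In notochord-like cells 4 of 6 passed (67.9%), all higher, namely cldni by 4.48, cldn5a by 3.0, cldn11b by 2.1 and cldn12 by 1.06. Presomitic mesoderm-like cells passed for 6 of 8 (70.0%), with cldni (3.19), cldn11b (2.20) and cldng (0.89) higher and cldn7b (-1.08), cldne (-1.04) and cldn12 (-0.68) lower. There the calls of cldng, cldne and cldn12 ended with control libraries only (adjusted p = 0.087, 0.086 and 0.069 by edgeR). Tailbud-like cells passed for 3 of 6 (67.6%), with cldni (2.84), cldn5a (1.34) and cldn11b (1.25) higher. The cldni levels behind these rises stayed low. At 12 hpf the cldni medians were 6.07 CPM in notochord-like, 5.04 CPM in presomitic mesoderm-like and 3.90 CPM in tailbud-like cells. Other classes had similar medians, such as 3.75 CPM in somite-like, 3.90 CPM in hindbrain-like and 4.62 CPM in spinal cord-like cells. Whether cldni counts were carried over between droplets was not tested in any class. The highest notochord-like library stood at 116 CPM. cldn11b thus passed as higher in all 6 classes compared, and cldn12, level over all cells, was higher in 2 of them and lower in 2. Primordial germ cell-like and yolk syncytial layer-like cells, also named at both stages, are not among these 6. There cldn11b averaged 14.0 and 7.91 CPM at 12 hpf, against 13.9 and 2.62 CPM at 8 hpf, which are 10 UMIs and 1 UMI.

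Loss of the 4 factors at 12 hpf left the claudins mostly without a call. An additive model over the 16 libraries, with a term for each lost factor and for the library set (A, counted with Cell Ranger 3.1.0, or B, with 6.1.2, with 8 libraries each), was fitted to all cells and to 21 classes. The model assumes that the losses do not interact. It counts tyr and wild type libraries alike as intact and joins creb3l1 mutants with the creb3l1 crispant. Of 676 pairs of member and fit, 5 passed (0.740%), against 0.373% of all gene and fit pairs. Loss of creb3l1 gave 3 of them (background 0.878%), loss of xbp1 1 (0.455%), loss of creb3l2 1 (0.145%) and loss of atf6 0 (0.0148%). For atf6, 10 of 169 pairs had an unadjusted p under 0.05 by edgeR, and DESeq2 called 1, cldnb in hatching gland-like cells (log2 -0.84, adjusted p = 0.049).

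With creb3l1 lost, 3 members were lower, each in a different fit. cldni in otic placode-like cells had 21.0, 59.1 and 147 CPM in the lowest, median and highest of the 8 lost libraries, against 64.2, 167 and 260 CPM in the 8 intact ones, a log2 fold change of -1.18 (SE 0.25, adjusted p = 0.047 by edgeR, background 0.379%). The groups overlapped over both sets but not within set B, and the call ended in 13 of 16 refits that left out 1 library. cldn11b in presomitic mesoderm-like cells had 14.5, 23.6 and 36.0 CPM in lost libraries, against 29.2, 35.2 and 49.1 CPM in intact ones (log2 -0.67, SE 0.15, adjusted p = 0.027 by edgeR, background 1.88%). The groups overlapped, and the call ended without the creb3l2 library or without either creb3l1 mutant library (adjusted p up to 0.25 by edgeR). cldn2, known in mammals as a pore for cations, passed over all cells at -1.27 (SE 0.32, adjusted p = 0.0497 by edgeR, background 2.47%), with 0.111, 0.206 and 0.312 CPM in lost libraries, against 0.170, 0.385 and 0.748 CPM in intact ones. These are 4 to 80 UMIs per library, and the call ended in 12 of 16 refits.

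cldni stood near the threshold in other fits of creb3l1 loss. Over all cells its log2 fold change was -0.81 (adjusted p = 0.051 by edgeR). In preplacodal-like cells it was -1.14 (adjusted p = 0.069 by edgeR) and in basal epidermis-like cells -0.60 (adjusted p = 0.075 by edgeR). DESeq2 called cldni over all cells and in basal epidermis-like cells, with adjusted p = 0.0016 and 0.0060, but not in preplacodal-like cells. In basal epidermis-like cells the lost libraries ran from 489 to 1095 CPM and the intact ones from 929 to 1770 CPM. Over the 20 class fits that tested cldni the estimate was below 0 in 16, with a median of -0.88 and an unadjusted p under 0.05 in 8. The 16 libraries are the same in each fit, so these are not independent results.

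Loss of creb3l2 gave 1 called member, cldnb in periderm-like cells, which was higher. It had 115, 122 and 269 CPM in the lowest, median and highest of the 6 lost libraries, against 14.7, 102 and 204 CPM in the 10 intact ones (log2 1.56, SE 0.27, adjusted p = 0.014 by edgeR, background 0.481%). All of these 6 lost libraries except the creb3l2 crispant library had also lost creb3l1. The model separates the 2 losses through that library and through the creb3l1 mutant and creb3l1 crispant libraries, in which creb3l2 was intact. The CPM levels of lost and intact libraries do not separate them. Within set A the lost libraries averaged 153 ± 62.1 CPM and the intact ones 48.4 ± 35.9 CPM, without overlap. Within set B they averaged 171 ± 85.1 and 149 ± 36.6 CPM and overlapped, and in set A the cldnb counts of periderm-like cells were as low as 2 UMIs in a library. The call ended without the creb3l2, the xbp1+atf6 or the xbp1+creb3l2+creb3l1 library (adjusted p up to 0.56), and with no term for the set (1.16, adjusted p = 0.52 by edgeR). Of the other periderm-like claudins, cldnf stood at 1.79, cldn23a at 1.69 and cldne at 1.46 on the log2 scale, with adjusted p = 0.20, 0.11 and 0.11. The same fit called oclna, the junction protein occludin, at 2.02 (adjusted p = 0.022), and ildr1a, a protein of tricellular junctions, at 2.13 (adjusted p = 0.014).

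The mixture of the 2 periderm-like clusters varied between libraries in the same fit. Cluster 42, with the higher cldnb, gave 7.72% to 57.4% of the periderm-like UMIs in lost libraries, against 10.7% to 46.9% in intact ones, with medians of 33.9% and 26.9%. Fits of a single cluster rest on 14 libraries, since cluster 42 had fewer than 10 cells in the creb3l2+creb3l1 and 1 creb3l1 mutant library, and cluster 45 in 1 tyr and 1 creb3l1 mutant library. There the cldnb estimate was 1.07 in cluster 42 (SE 0.34, adjusted p = 0.12 by edgeR) and 0.82 in cluster 45 (adjusted p = 0.86). The part of this mixture in the call was not tested beyond these fits.

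Loss of xbp1 gave 1 called member, cldn7b in hatching gland-like cells, a class in which 8.94% of all genes passed. The 5 lost libraries had 48.4, 63.9, 70.1, 74.7 and 81.7 CPM, against 66.2, 102 and 122 CPM in the lowest, median and highest of the 11 intact ones (log2 -0.45, SE 0.14, adjusted p = 0.049 by edgeR). The groups overlapped, and the call ended in 12 of 16 refits. cldnh, the most abundant claudin of that class, had 197, 243, 262, 266 and 331 CPM in lost libraries, against 146, 200 and 244 CPM in intact ones (log2 0.45, adjusted p = 0.062 by edgeR and 0.017 by DESeq2). Those groups overlapped too, at 197 to 244 CPM.

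**Figure D4:**
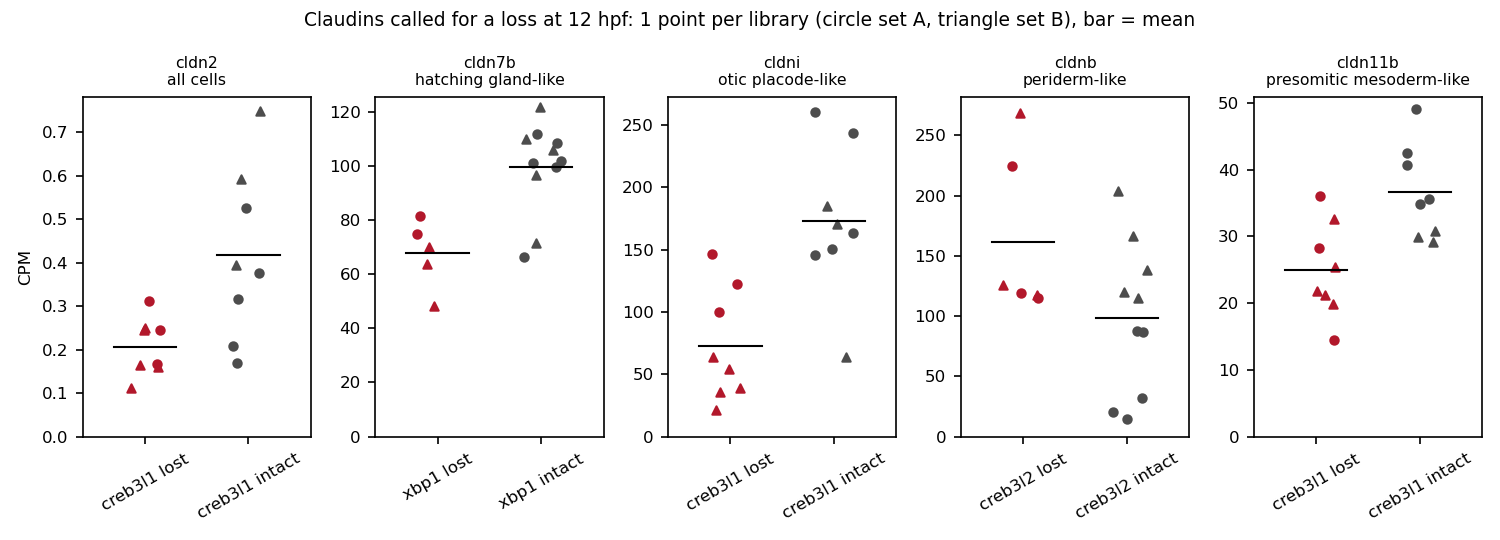
CPM per library at 12 hpf for the 5 pairs of claudin and cell class called in the additive model, libraries with the factor lost (red, left) beside intact ones (grey, right), circles for set A, triangles for set B and a bar at the mean. The groups overlap in all 5 panels, and in the cldnb panel the set A circles are apart while the set B triangles mix.

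Comparisons of groups with 2 libraries each gave 1 further call. The quadruple loss and tyr crispants were compared in all cells and in hatching gland-like, notochord-like and periderm-like cells. Both quadruple libraries and 1 tyr library belong to set B, and the other tyr library to set A. In periderm-like cells cldni had 148 and 228 CPM in quadruple libraries, against 907 and 738 CPM in tyr libraries (log2 -2.22, SE 0.40, adjusted p = 0.030 by edgeR, background 0.158%). Refits without any 1 of the 4 libraries ended the call, with adjusted p from 0.088 to 0.37. Cluster 42 gave 28.6% to 41.7% of the periderm-like UMIs in quadruple libraries and 34.4% to 46.9% in tyr libraries. In cluster 42 alone the estimate was -1.72 (adjusted p = 0.65 by edgeR). Cluster 45 had fewer than 10 cells in the set A tyr library, so its value of -2.11 sets both quadruple libraries against 1 tyr library and is given with no test. Over all cells cldni had 108 and 126 CPM in quadruple libraries, against 349 and 424 CPM in tyr libraries, without overlap (log2 -1.87 with an SE of 0.38). The adjusted p was 0.082 by edgeR, and DESeq2 gave adjusted p = 3.6e-06. No member passed over all cells, in hatching gland-like or in notochord-like cells (backgrounds 0.418%, 4.18% and 2.61%), where 4, 3 and 1 members had an unadjusted p under 0.05 by edgeR and DESeq2 called 1, 2 and 0. With a term for the set, 1 member passed in hatching gland-like cells.

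The creb3l1 mutant against wild type, and tyr crispants against wild type, gave 0 called members in each of the 4 fits by edgeR, against backgrounds of 0.212%, 0.0598%, 0% and 0% for the mutant and 0.0801%, 0%, 0% and 0.0431% for tyr crispants (all cells, hatching gland-like, notochord-like and periderm-like cells). At an unadjusted p under 0.05 they gave 3, 2, 2 and 3 members (mutant, in the same order) and 0, 1, 1 and 1 (tyr). DESeq2 also called no member in these 8 comparisons. Both wild type libraries belong to set B, while the mutant and the tyr groups have 1 library in each set. With 2 libraries a group, differences of moderate size could be missed.

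At 8 hpf each mRNA had 1 library, so no test was possible, and a difference was named only when the CPM ratio reached 2 or fell to 0.5 among genes with at least 20 UMIs over both libraries. The intervals given are 95% exact intervals of counting error only. Over all cells, atf6-N against mCherry (40 pg) was past this fold for 6 of 21 claudins, 4 higher and 2 lower (background 19.1%). cldn5b, an endothelial claudin in older fish, had 32.2 CPM in the atf6-N library, against 1.1 CPM with mCherry, a 29.3-fold ratio (22.9 to 38.2). This was the most extreme claudin ratio of the 5 comparisons at 8 hpf. cldn7b had 34.1 CPM with atf6-N, against 16.1 CPM with mCherry (2.12-fold), and cldn11b 12.4 against 6.02 CPM (2.05-fold). cldn19 was higher at very low level, and cldna (0.268-fold) and cldn10b (0.403-fold) were lower. Of the 5 named classes with enough cldn7b counts, 0 were past the fold as higher and 1 as lower.

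The cldn5b difference was met in every named class with enough counts. It stood at 21.6 CPM in the atf6-N library, against 1.44 CPM with mCherry, in notochord-like cells, at 12.4 against 3.83 CPM in presomitic mesoderm-like cells, and at 3.01 against 0.452 CPM in basal epidermis-like cells. The mCherry values rest on 4, 29 and 3 UMIs. In the mCherry (125 pg) library, cldn5b stood at 1.89, 11.2 and 0 CPM in the same classes. In presomitic mesoderm-like cells that library thus lay near the atf6-N value. The highest cldn5b levels lay in unnamed clusters 35 and 23, at 178 and 66.8 CPM over pooled cells, and all cells of these clusters came from the atf6-N library. What those cells are was not resolved by the markers used.

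creb3l2-N against mCherry (40 pg) was past the fold for 7 of 19 claudins, all lower (background 22.6%). cldnb had 4.76 CPM with creb3l2-N, against 18.6 CPM with mCherry (0.256-fold, 0.228 to 0.286), cldn7b 7.06 against 16.1 CPM (0.438-fold) and cldn23a 5.44 against 11.2 CPM (0.486-fold). cldna, cldnc, cldnh and cldn10b were lower too, at 0.571 CPM or less with creb3l2-N. Most of these are members of the periderm-like class, whose cells held 0.910% of all UMIs in the creb3l2-N library, against 2.16% with mCherry. The share of cells was similar, at 3.76% with creb3l2-N and 3.90% with mCherry. The UMIs per periderm-like cell were 4564.5 with creb3l2-N and 9963.4 with mCherry. Within periderm-like cells cldnb stood at 487 CPM with creb3l2-N, against 794 CPM with mCherry, and cldne at 4258 against 3323 CPM, neither past the fold. Of the periderm-like members counted, 1 of 11 was past it with atf6-N (background 16.2%), 1 of 12 with creb3l1-N (11.7%) and 1 of 11 with creb3l2-N (18.2%), each lower, and 0 of 8 with creb3l2-full (7.88%), while the 2 mCherry libraries differed for 4 of 12 (11%). The part of the periderm-like share in the all-cell ratios was not tested further.

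creb3l1-N against mCherry (40 pg) was past the fold for 3 of 19 claudins (background 16.9%), all lower and all at 1.34 CPM or less, namely cldni, cldnh and cldnc. cldnb, just inside at 0.510-fold, had 9.50 CPM with creb3l1-N, against 18.6 CPM with mCherry. creb3l2-full against mCherry (125 pg) was past the fold for 0 of 17 claudins over all cells (background 6.61%). In classes it was past for cldn7b in 4 of 6, each lower, as in notochord-like cells with 3.01 CPM for creb3l2-full, against 13.9 CPM with mCherry, which are 6 and 22 UMIs. These 2 libraries also differ in dose and in periderm-like cells, at 9.09% of cells with creb3l2-full and 5.15% with mCherry. Within that class cldne stood at 1823 against 2964 CPM, cldnb at 243 against 414 CPM and cldn12 at 21.7 against 13.5 CPM, none past the fold. The part of this share in the all-cell ratios was not tested. The 2 mCherry libraries differ by the xbp1 crispant background and the dose. Between them, 40 pg in crispants over 125 pg in intact embryos, 2 of 19 claudins were past the fold, cldn17 and cldnk, both higher (background 10.9%). cldn17 was higher in 4 of 4 classes with enough counts, and over all cells 3.30-fold.

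Within single classes at 8 hpf most ratios past the fold rest on few UMIs, and over the 45 class comparisons 4.58% to 27.9% of all genes counted were past it. With atf6-N against mCherry (40 pg), cldne was lower in basal epidermis-like, notochord-like and tailbud-like cells, cldn17 lower and cldn23b higher in basal epidermis-like cells, cldn7b lower in tailbud-like cells, cldna lower in periderm-like cells, and cldn11b higher in presomitic mesoderm-like cells with 9.96 against 4.89 CPM. With creb3l1-N, cldn7b was higher in notochord-like cells, at 12.7 CPM against 4.32 CPM with mCherry, and cldn23b was lower in prechordal plate-like and cldnh in periderm-like cells. With creb3l2-N, cldn7b was lower in basal epidermis-like, neural plate-like and tailbud-like cells, cldn23b in prechordal plate-like and cldnh in periderm-like cells. In primordial germ cell-like cells cldn12 had 164 CPM with creb3l2-N, against 54.5 CPM with mCherry, from 20 and 25 UMIs.

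With creb3l2-full against mCherry (125 pg), cldng was lower in notochord-like and presomitic mesoderm-like cells, cldne in notochord-like and cldn5b in presomitic mesoderm-like cells, beside cldn7b. Between the mCherry libraries (40 pg in crispants over 125 pg), cldn5b had 3.83 against 11.2 CPM in presomitic mesoderm-like cells and cldng 63.3 against 187 CPM in primordial germ cell-like cells. cldn7b in notochord-like and cldne in neural plate-like cells were lower as well, and cldn12, cldna, cldnh and cldnk higher in periderm-like cells. Differences of this size thus also occurred between the 2 mCherry libraries.

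**Figure D5:**
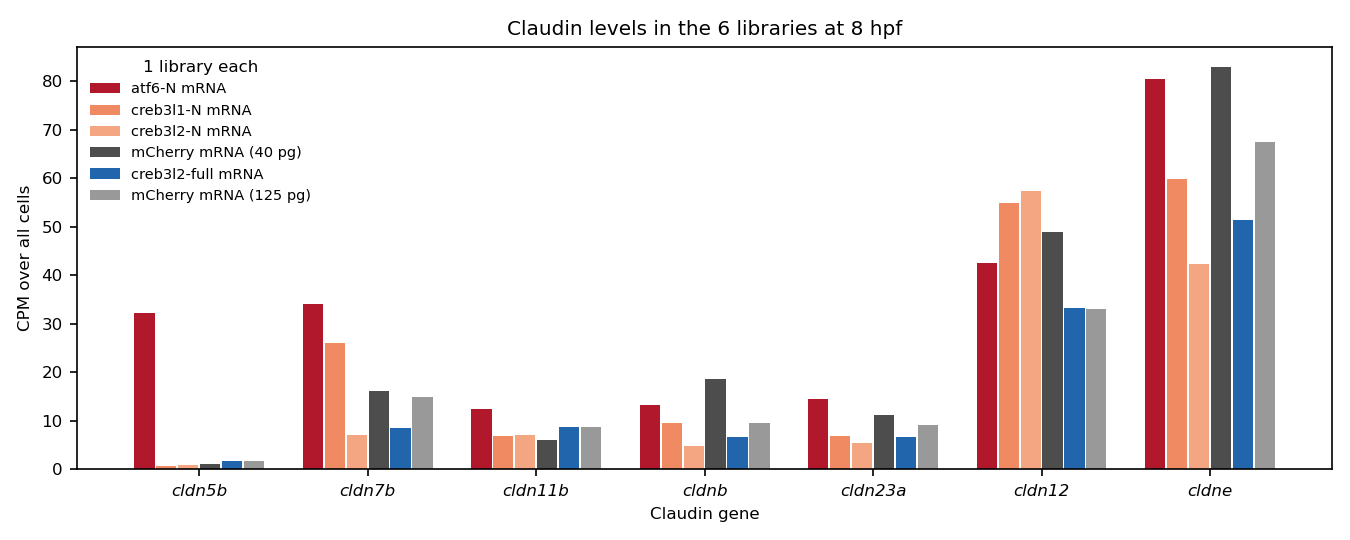
CPM over all cells of 7 claudins in the 6 libraries at 8 hpf, 1 bar per library, with each mRNA left of the mCherry library it is compared with. The atf6-N bar of cldn5b reaches 32.2 CPM while the other 5 stay between 0.559 and 1.77 CPM, and cldn12 and cldne stay within 2-fold of their mCherry library in every comparison.

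Other genes of the tight junction were read from a list of 52, of which 48 are in the feature table. Between stages 37 of 44 tested genes passed over all cells (background 71.3%), 23 higher and 14 lower at 12 hpf. tjp1b, which encodes the scaffold protein ZO-1, was higher by 2.12 on the log2 scale, the adhesion molecule jam3b by 1.77 and the polarity protein pard6gb by 2.08. oclna fell by 2.74 and the scaffold magi1b fell by 2.72. For the losses, marveld1, of the MARVEL family of membrane proteins, was lower with creb3l1 loss over all cells (log2 -0.94, adjusted p = 0.0066 by edgeR) and in neural crest-like cells (log2 -1.39, adjusted p = 0.033), beside oclna and ildr1a in periderm-like cells, and no other listed gene passed in the additive fits.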

How the data were processed

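Droplet libraries (10x 3′ version 3) of whole embryos were counted with Cell Ranger 3.1.0 (8 libraries) or 6.1.2 (14 libraries), per the submitters' processing notes. The deposited values are raw UMI counts per gene and barcode, per the file headers not normalized. The genome build is not given in the sources used here. Barcodes with at least 1000 UMIs and at most 10% mitochondrial UMIs were kept. An automatic doublet threshold marked too few cells in some libraries and was replaced by removing the top scores, 0.8% per 1000 barcodes. Cells were clustered per stage with scanpy 1.11.5 (2000 variable genes, 40 components, 15 neighbours, Leiden resolution 2), leaving out claudins and other junction genes. Clusters were named from marker lists by a rule revised after the clusters had been seen, with 1 exception made by hand: a 12 hpf cluster led by twist1a was not called preplacodal-like. UMI counts were summed per class and library with at least 10 cells and tested with edgeR 4.0.16 (R 4.3.3), with TMM scaling, filterByExpr, quasi-likelihood test and Benjamini-Hochberg adjustment over all genes tested. The same code was tested on simulated data. CPM scales a gene's UMIs by all UMIs of the class. DESeq2 1.42.0, other filters and scalings, and refits without single libraries were the alternatives. At 8 hpf, with 1 library a group, CPM ratios with 95% exact binomial intervals are given, and these cover counting error only.

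The members and gene lists were chosen with earlier results of these data known. Named are all members with adjusted p under 0.05 by edgeR in the fits of stage and of loss over all cells or whole classes. Where none passed, the member with the smallest p is not always named. From the interaction of stage and class and the fits of a single cluster, only some are named. Also named are all past 2-fold at 8 hpf, the highest 3 per class at 20 CPM or more, and up to 5 junction genes per comparison. Of the 30 members, 29 matched the RefSeq gene table. Neighbouring near-identical claudins may share reads, so splits among them are uncertain. No sequence is printed.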

Additional observations from a re-analysis of the deposited data

Results flagged for a closer look

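The stage difference of cldnb and of cldn7b was not the same in the 2 epidermal classes. In periderm-like minus basal epidermis-like cells it was -7.90 for cldnb (SE 0.44) and -6.20 for cldn7b (SE 0.28) on the log2 scale, with adjusted p = 3.7e-16 and 1.8e-18 for the interaction of stage and class (edgeR quasi-likelihood test, Benjamini-Hochberg over all genes). Both genes were lower at 12 hpf in periderm-like cells and higher in basal epidermis-like cells. The size of the cldnb difference is uncertain, as basal epidermis-like cells held 35 UMIs of it at 8 hpf. In the periderm-like cluster 42 alone neither decrease passed. With control libraries only, the periderm-like decrease of cldn7b did not pass either.

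The gene cldnd, which the rule leaves out because its symbol begins like the cldnd (claudin domain containing) symbols, carried a signal outside the comparisons. It averaged 1.05 CPM over the 12 hpf libraries and 10.7 CPM over the 6 libraries at 8 hpf, a log2 fold change of -3.32 (adjusted p = 8.9e-13 by edgeR).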

How the results depend on the processing

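Of 719 counts of called claudins recomputed under an alternative, 618 stayed within 1.5 times the reported count and 101 did not. Of 369 single values, 296 kept direction and side of the threshold, 71 kept the direction and lost the call, and 2 turned: cldn5b between stages over all cells with control libraries only (0.13) and cldnf between stages in periderm-like cluster 42 alone (0.11). The cause was not tested.

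With DESeq2, loss of xbp1 called 3 claudins in hatching gland-like cells, loss of atf6 1 there, loss of creb3l1 2 over all cells and 1 in basal epidermis-like cells, loss of creb3l2 2 in periderm-like cells, and quadruple against tyr 1 over all cells and 2 in hatching gland-like cells. Keeping doublets, adding an injection term and dropping the set term each left 0 for xbp1 in hatching gland-like cells and 0 for creb3l1 over all cells, and dropping the set term also left 0 for creb3l2 in periderm-like cells. Scaling by library totals gave 2 for creb3l1 over all cells, and a set term gave 1 for quadruple against tyr in hatching gland-like cells. Cluster 42 alone gave 0 for creb3l2, 0 for quadruple against tyr and 3 between stages, and cluster 45 alone 0 for creb3l2, each with fewer libraries than the whole class. Control libraries only gave 7 between stages in notochord-like cells and 7 for the stage and class difference. A minimum of 50 UMIs left 1 between the mCherry libraries.

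With no low-count filter, counts rose. Loss of xbp1 gave 3 in hatching gland-like, 2 in notochord-like, 1 in periderm-like and 9 in other classes, loss of atf6 1 in hatching gland-like, 2 in periderm-like and 3 in other classes, and loss of creb3l2 5 in periderm-like and 5 in other classes. Loss of creb3l1 gave 2 over all cells, 2 in hatching gland-like, 1 in notochord-like, 1 in periderm-like, 2 in basal epidermis-like and 9 in other classes. Quadruple against tyr gave 1 over all cells, 3 in hatching gland-like and 1 in notochord-like cells, the creb3l1 mutant against wild type 2, 1 and 1 in hatching gland-like, notochord-like and periderm-like cells, and tyr against wild type 1 in notochord-like cells. Between stages it gave 14 in basal epidermis-like, 10 in endoderm-like, 11 in notochord-like, 13 in presomitic mesoderm-like and 6 in tailbud-like cells.

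Leaving out 1 library gave 0 to 3 calls for creb3l1 over all cells, for xbp1 in hatching gland-like and for creb3l2 in periderm-like cells, 0 to 2 for creb3l1 in basal epidermis-like cells and 0 to 4 in other classes. It gave 0 for quadruple against tyr in periderm-like and 0 to 1 in hatching gland-like cells, and 0 to 2 for the creb3l1 mutant against wild type in periderm-like cells.

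Replicate numbers did not pair the libraries: deviations of same-numbered libraries correlated between -0.48 and 0.31 over 14703 genes. With the number as a block, cldni in periderm-like cells had -2.27 for quadruple against tyr (adjusted p = 0.011 by edgeR), and no count of calls changed. Few UMIs per class and 1 library a group at 8 hpf limit what could be detected for most of the 30 members.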

Other observations

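Some 12 hpf clusters without a name held more claudin transcript than most named classes. Over its pooled cells, cluster 8 held 2602 CPM of cldni and cluster 26 held 2528 CPM. Cluster 40 held 1019 CPM of cldna and 645 CPM of cldni.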
